A study of Mus musculus with 12 samples.

Results

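The genes described here encode the proteins of the cytosolic ribosome. They were taken as every probe of the array whose gene name is Rpl or Rps followed by a number and at most 1 letter, or is Rplp0, Rplp1, Rplp2 or Rpsa. That rule, which uses names and no measured value, gave 180 probes of 80 genes among the 55681 probes of the array. Of these, 179 passed the filter (well above background throughout 1 group or more) and were tested among 30885 such probes, and 178 were well above background on all 12 arrays. No spot of the arrays was saturated.

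Mouse embryonic stem cells (mESCs) were grown with serum and the cytokine LIF, and total RNA was labelled from its poly(A) end with Cy3 and hybridised to one-colour Agilent arrays. The first group, Id1KO_Zrf1KD, is the Id1 knockout line carrying in addition a lentiviral short hairpin against Zrf1, selected with puromycin. The second, Id1KO, is the Id1 knockout line without the hairpin, and the third, WT, is the wild type line. Each group has 4 arrays of biological samples that the study design calls independent. Id1 binds and blocks transcription factors of the basic helix-loop-helix class. Zrf1, named Dnajc2 on the array, is a J-domain protein known both as a ribosome-bound chaperone and as a chromatin factor. The labels name no more than 1 line for each genotype, and no hairpin-only or control-hairpin sample was analysed here, so that the line and the loss of Id1, and likewise the infection and the loss of Zrf1, cannot be told apart.

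A ribosome is built of a small subunit, which reads the mRNA, and a large subunit, which joins amino acids, and most of their proteins are present in 1 copy. Their mRNAs are among the most abundant of a growing cell. Most begin with a short tract of C and T bases at the transcription start, the 5′ terminal oligopyrimidine (TOP) tract, through which growth signals control their translation. Mammalian genomes also hold many processed copies of these genes, which can share sequence with the parent mRNA.

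The promoter sequences of 59 of the 80 genes were in the RefSeq table (build GRCm38.p6). Those of 5 genes are shown from 75 bases before to 25 bases after the annotated start, 5′ to 3′ on the strand of the gene, because the tract at the start is what sets these genes apart as a regulated family. Capitals mark CTTTC found on the forward strand within 10 bases before to 15 bases after the start. Rps6 (chr4:86857343-86857442, minus strand) and Rpl10 (chrX:74270741-74270840, plus strand) hold no such match in that window. Rpl35 (chr2:39005107-39005206, minus strand), Rpl7a (chr2:26910732-26910831, plus strand) and Rpl28 (chr7:4792890-4792989, plus strand) hold it. Rps6 has another run of C and T bases around its start, cctctttttc.
Rps6: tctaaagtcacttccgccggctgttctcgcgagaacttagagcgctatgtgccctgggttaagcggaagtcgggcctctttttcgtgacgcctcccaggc
Rpl35: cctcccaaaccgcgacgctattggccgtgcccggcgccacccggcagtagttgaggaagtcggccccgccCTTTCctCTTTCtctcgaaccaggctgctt
Rpl7a: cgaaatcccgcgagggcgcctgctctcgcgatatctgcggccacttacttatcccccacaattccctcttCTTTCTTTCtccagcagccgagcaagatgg
Rpl28: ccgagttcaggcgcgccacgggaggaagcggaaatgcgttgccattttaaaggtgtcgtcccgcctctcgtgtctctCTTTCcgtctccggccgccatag
Rpl10: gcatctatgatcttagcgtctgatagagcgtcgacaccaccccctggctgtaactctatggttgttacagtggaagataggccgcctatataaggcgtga

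CTTTC stood in that window in 15 of the 59 promoters (25.4%), against 3.68% of the 27025 promoters of the table. CCGGAAG, searched on both strands of the whole window of 250 bases before to 50 after the start, was in 25 of 59 (42.4%), against 9.93% of all. Several motifs were searched and these were picked after their shares were seen, so the shares are a description, and a match is not a site. CTTTC is only 1 form of a tract of C and T bases, and genes without it, such as Rps6, can hold another. A split by CTTTC is therefore not a split by the presence of a TOP tract. The 15 genes with CTTTC and the 44 without it had like medians. For Id1KO against WT these were 0.70 with it and 0.66 without it, and in Id1KO_Zrf1KD against Id1KO they were -0.66 and -0.62 (log2 fold changes of each gene's brightest probe).

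The array sees a gene through probes of 60 bases, and 25 genes had 1 probe while 55 had several. The first 30 bases of 8 probes are shown, 5′ to 3′, because the results turn on pairs of them. For Rpl22 and Rps6 these are probes of the same gene name at different bases of the annotated transcript. The later probe of each was far dimmer, and whether both read the same mRNA was not tested. The other pairs are probes named for a parent gene and for its paralogue, Rpl39 with Rpl39l and Rps27 with Rps27l. Positions are those of the files (mm9) and, where a probe spans an intron, cover it. The Rpl22 probes lie at chr4:151706515-151706574 (base 385 of the transcript) and chr4:151708012-151708071 (base 1882), plus strand. The Rps6 probes lie at chr4:86500748-86500807 (base 589) and chr4:86500063-86500122 (base 1274), minus strand. Those of the paralogue pairs lie at chrX:34622696-34623990 (Rpl39, minus strand), chr16:10174657-10174716 (Rpl39l, plus strand), chr9:114891509-114891568 (Rps27, minus strand) and chr9:66795486-66797176 (Rps27l, plus strand).
Rpl22, base 385: ggaggaagacgaggattaggacacattggt
Rpl22, base 1882: gctgtaaacaacattaaccctgggttgatt
Rps6, base 589: tgtcctgcaacacaaatgccgacgtattgc
Rps6, base 1274: tggtgtgtatcacaagttagcctgtgtagc
Rpl39: aacaaaatcaggtacaactctaagagaaga
Rpl39l: ctgtgctttagtgagttcattcagcagttc
Rps27: gcccctgattgaagatgagtgggaaccttc
Rps27l: aaagccaggctcacagaaggctgttcattt

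The position in the files was not always that of the parent gene. Of 176 probes that could be compared, 12 lay on another chromosome than the gene of that name in GRCm38. All 4 Rps27 probes lay on chromosome 9, and 1 of the Rps4x probes lay on chromosome 3. Signals of these genes can hold RNA of near-identical copies and are uncertain to that extent.

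Levels are log2 processed signals relative to the 75th percentile of the array, so that 0 is the level of that percentile. The targeted Zrf1 (Dnajc2) had levels of -0.34, -0.28, -0.15 and -0.30 on the Id1KO_Zrf1KD arrays, against 1.81, 2.0, 1.96 and 1.80 on the Id1KO arrays and 1.84, 1.98, 2.06 and 2.10 on the WT arrays. It was 4.47-fold lower in Id1KO_Zrf1KD than in Id1KO (limma, adjusted p = 1.2e-09). The single Id1 probe had 0.62, 0.60, 0.92 and 0.57 on the Id1KO_Zrf1KD arrays, 1.33, 1.58, 0.86 and 1.13 on the arrays labelled Id1KO, and 0.74, 0.64, 1.01 and 1.05 on the WT arrays. It was not lower in Id1KO than in WT (log2 fold change 0.37, adjusted p = 0.053). The labels do not say which part of Id1 is deleted, so the probe may lie outside it, and every direction below that involves Id1KO rests on the label. The 75th percentile itself was a processed signal of 554 to 596 in Id1KO_Zrf1KD, 393 to 492 in Id1KO and 441 to 550 in WT. All 8 embryonic stem cell marker genes were well above background on every array.

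In the arrays labelled Id1KO, nearly the whole family was higher than in WT, by a median of 0.66 on the log2 scale (1.58-fold). Of 179 probes, 163 were higher, 3 were lower and 13 were not called (limma, Benjamini-Hochberg over all 30885 probes, adjusted p under 0.05). Among all probes tested, 42.3% were higher and 28.1% were lower in this comparison, and their median was 0.16. After the Zrf1 knockdown the family was lower than in Id1KO, by a median log2 fold change of -0.62, with 165 probes lower, 3 higher and 11 not called. There 40.6% of all probes were lower and 30.3% higher, with a median of -0.12. Both comparisons use the same Id1KO arrays, so they are not independent of each other. Fewer cells that make much of these mRNAs and less of the mRNAs per cell cannot be told apart in such bulk RNA.

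Id1KO_Zrf1KD against WT gave a median of 0.01, with 27 probes higher, 20 lower and 132 not called. Both shares are below those of all probes, of which 31.4% were higher and 32.4% lower. The quartiles of the family lay at -0.09 and 0.10 there, at 0.45 and 0.86 in Id1KO against WT, and at -0.85 and -0.48 in Id1KO_Zrf1KD against Id1KO. The 4 Id1KO arrays lay wholly above the 4 WT arrays for 159 probes and wholly below for 2 (38.6% and 25.9% of all probes). The 4 Id1KO_Zrf1KD arrays lay wholly below the Id1KO arrays for 159 probes and wholly above for 3 (37.3% and 28.7% of all probes). Id1KO_Zrf1KD lay wholly above WT for 25 probes and wholly below for 22 (29.7% and 30.2% of all probes).

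Array by array, the median level of the family was 7.89 to 7.95 in Id1KO_Zrf1KD, 8.61 to 8.66 in Id1KO and 7.91 to 7.97 in WT. The Id1KO arrays stood apart, and the other groups overlapped. The family's share of the summed linear signal, which needs no scaling between arrays, was 12.4 ± 0.059% in Id1KO_Zrf1KD, 15.0 ± 0.19% in Id1KO and 12.9 ± 0.13% in WT (SD, n = 4 each). By that measure the Id1KO_Zrf1KD arrays, at 12.355 to 12.479%, also lay below the WT arrays, at 12.763 to 13.062%.

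**Figure D1:**
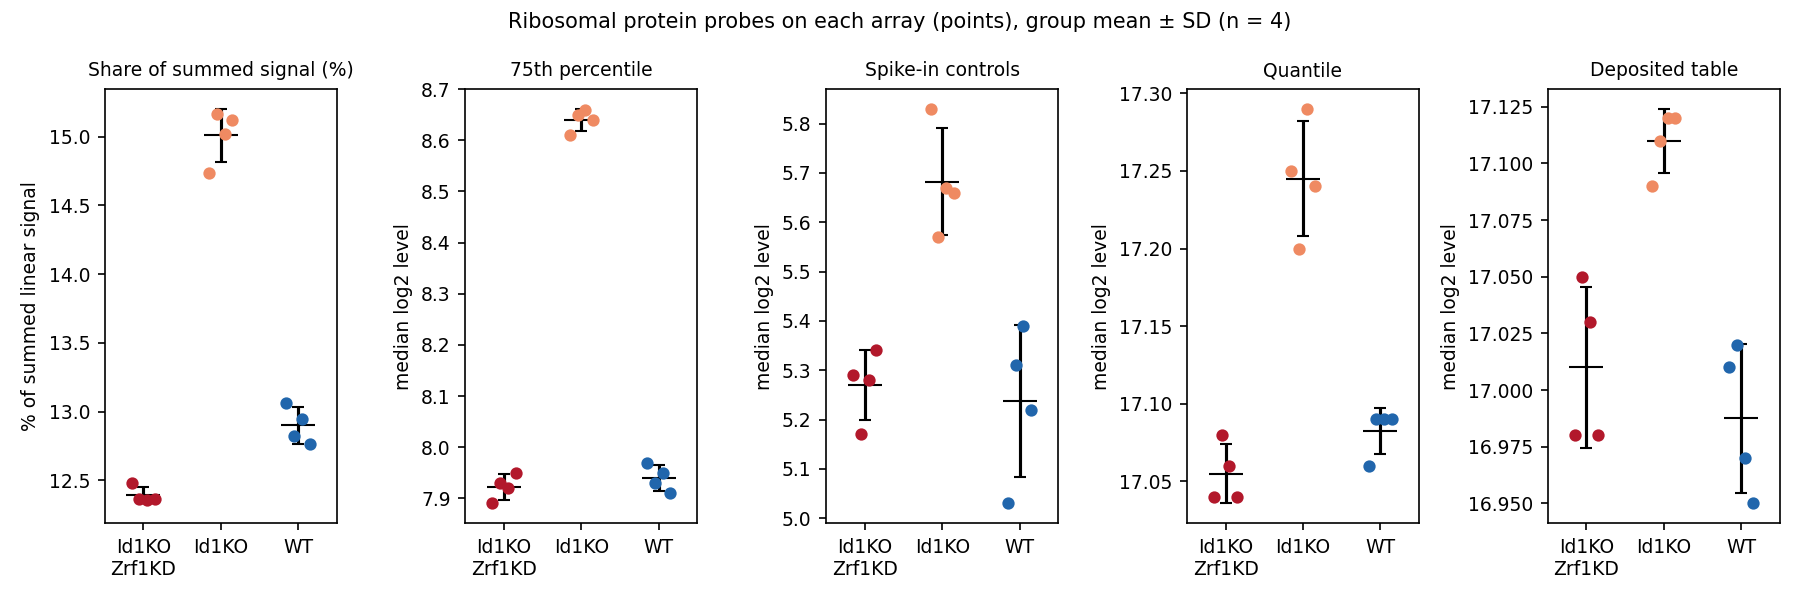
Ribosomal protein probes on each of the 12 arrays, by group, as the percentage of the summed linear signal and as the median log2 level after 4 scalings. Points are arrays and bars are group means with SD (n = 4), and the axes do not start at 0. The Id1KO arrays lie above the others in every panel, and the distance is smaller after quantile normalization and in the deposited table.

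The size of the shift depended on the scaling. After quantile normalization the median was 0.18 in Id1KO against WT, with 95 probes higher and 33 lower (34.9% and 33.3% of all probes). It was -0.17 in Id1KO_Zrf1KD against Id1KO, with 22 higher and 100 lower (34.3% and 34.1% of all probes). The authors' deposited log2 table, whose columns have nearly the same sorted values, gave 0.20 with 95 higher and 30 lower (34.8% and 33.1% of all probes), and -0.20 with 19 higher and 99 lower (34.1% and 33.8%). Scaled to the spike-in control probes, a choice made after seeing the data, the medians were 0.41 with 116 higher and 5 lower (26% and 35.1% of all probes), and -0.32 with 9 higher and 110 lower (40.7% and 24%). Scaled to the array median they were 0.35 with 95 higher and 7 lower (22.5% and 37.3%), and -0.20 with 12 higher and 69 lower (45.8% and 19.1%). With normexp background correction they were 0.61 with 161 higher and 3 lower (45.7% and 25.8%), and -0.57 with 6 higher and 164 lower (27.5% and 44.8%). For Id1KO_Zrf1KD against WT, 21 probes were higher and 30 lower after quantile normalization (29% and 33.4% of all probes), 22 and 27 in the deposited table (28.6% and 33.2%), and 11 and 7 with spike-ins (28.2% and 25.3%). There the array median gave 17 and 5 (30.6% and 22%) and normexp 26 and 21 (29.2% and 31.2%). The median of the family in the comparisons with Id1KO therefore kept its sign under these scalings, while the direction of single bright members did not.

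The scalings parted most among bright probes. The family holds 99 of the probes with a mean level of 8 or more, and 75 other named probes are as bright. At the 75th percentile scaling the 99 members had a median of 0.64 and the 75 others 0.51 in Id1KO against WT. In Id1KO_Zrf1KD against Id1KO they had -0.61 and -0.57. After quantile normalization the same members had 0.09 and -0.06, and the others -0.02 and -0.01. For levels from 6 to 8 the distance from other probes was larger: the 53 members had 0.72 and the 389 other named probes 0.23 in Id1KO against WT, and -0.76 and -0.04 in Id1KO_Zrf1KD against Id1KO. The 27 members under level 6 had 0.67 and -0.54, against -0.05 and 0.11 for other named probes, and kept 0.55 and -0.53 after quantile normalization.

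**Figure D2:**
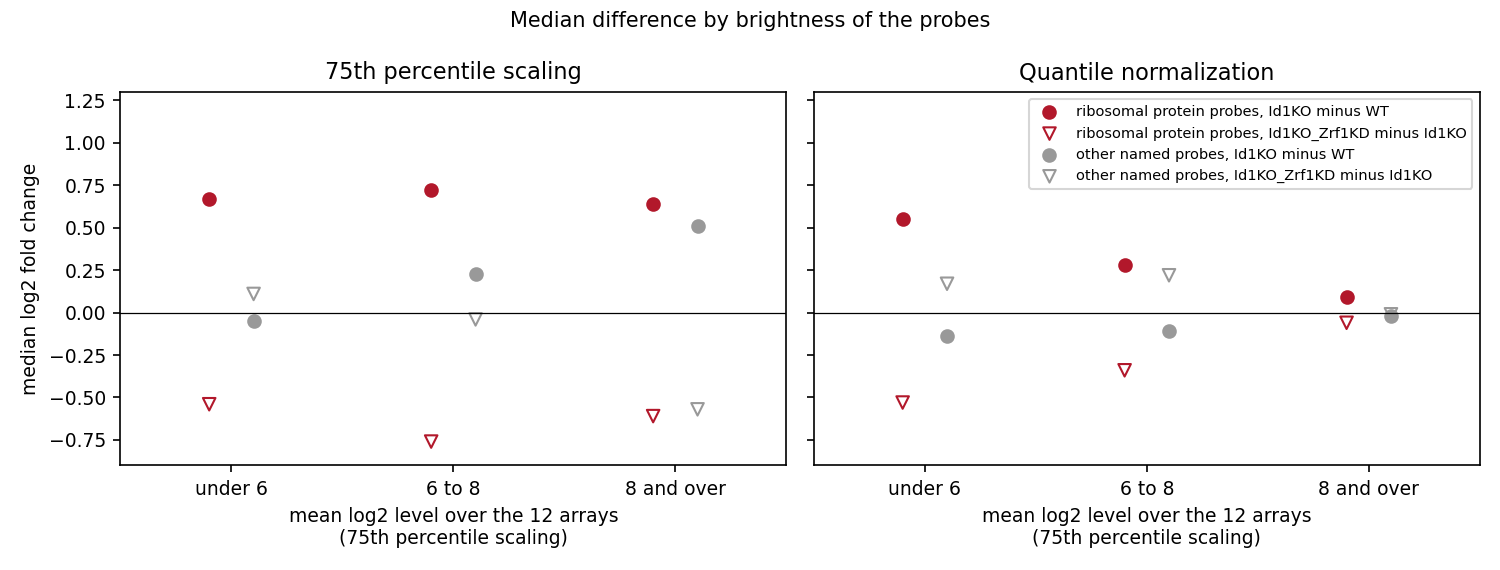
Median log2 fold change of ribosomal protein probes (red) and of other named probes (grey) in 3 ranges of mean log2 level, for Id1KO minus WT (circles) and Id1KO_Zrf1KD minus Id1KO (triangles), at the 75th percentile scaling (left) and after quantile normalization (right). At a level of 8 and over the members lie close to the other probes under both scalings, and below that they lie apart from them.

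The family did not shift as a block. Relative to its own median on each array, a scale added after seeing the data, 43 probes were higher and 61 lower in Id1KO against WT (12.5% and 61.1% of all probes). There were 69 higher and 39 lower in Id1KO_Zrf1KD against Id1KO (63.1% and 13.4%), and 30 higher and 17 lower in Id1KO_Zrf1KD against WT (31.9% and 31.3%). Subtracting the family median moves all other probes by the shift of the family. The shares of all probes in this paragraph therefore follow in part from the scale and are not a background for the members. The balance of higher and lower depended on the scaling. In the deposited table there were 63 higher and 46 lower in Id1KO against WT (25.3% and 42.4% of all probes), 33 and 73 in Id1KO_Zrf1KD against Id1KO (41.7% and 26.4%), and 13 and 32 in Id1KO_Zrf1KD against WT (26.4% and 34.4%). With normexp the counts were 56 and 56 (9.69% and 66.9%), 47 and 54 (64.6% and 10.9%), and 18 and 22 (27.5% and 32.3%) in these comparisons.

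Both subunits moved. The small subunit had 62 of 66 probes higher and none lower in Id1KO against WT, with a median of 0.75, and the large subunit 101 of 113 higher and 3 lower, with a median of 0.62. In Id1KO_Zrf1KD against Id1KO the small subunit had 62 probes lower and 1 higher (median -0.71), and the large subunit 103 lower and 2 higher (median -0.58). These medians kept their signs after quantile normalization, at 0.26 and -0.22 for the small subunit and 0.14 and -0.15 for the large subunit. Counted by gene, 66 of the 80 genes had every probe higher in Id1KO than in WT, and 69 had every probe lower in Id1KO_Zrf1KD than in Id1KO. In Id1KO_Zrf1KD against WT 4 genes had every probe higher and 6 every probe lower. By the same count, 38.3% of all gene names were higher in the first comparison, 36.1% lower in the second, and 29% higher and 29.2% lower in the last.

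**Figure D3:**
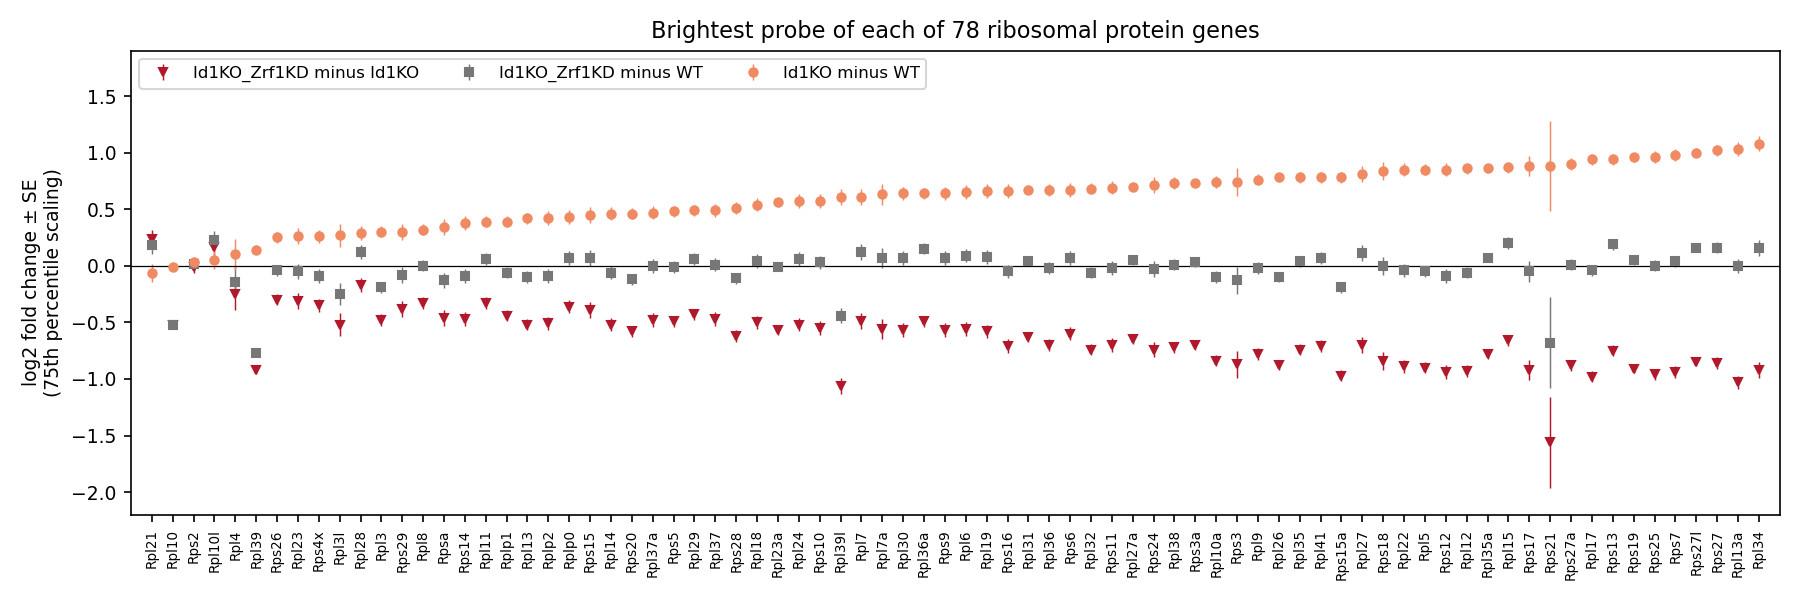
Log2 fold change with SE of the brightest probe of each of 78 genes at the 75th percentile scaling, for Id1KO_Zrf1KD minus Id1KO (red triangles), Id1KO_Zrf1KD minus WT (grey squares) and Id1KO minus WT (orange circles), in the order of the last. Most genes lie near 0 in Id1KO_Zrf1KD minus WT, and Rpl39, Rpl10 and Rpl39l lie below it.

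The stalk proteins Rplp0, Rplp1 and Rplp2 form the arm of the large subunit that recruits elongation factors, and they are among the brightest members. The brightest Rplp0 probe had levels of 9.50, 9.44, 9.40 and 9.38 in Id1KO_Zrf1KD, 9.74, 9.91, 9.77 and 9.75 in Id1KO, and 9.41, 9.30, 9.45 and 9.29 in WT. The Id1KO arrays lay above both other groups, which overlapped. All 5 stalk probes rose in Id1KO against WT (median 0.43) and fell in Id1KO_Zrf1KD against Id1KO (median -0.44) at the 75th percentile scaling, but after quantile normalization 3 were lower in the first comparison (median -0.15) and 2 higher in the second (median 0.11). Rplp1 (0.39 and -0.44) and Rplp2 (0.42 and -0.51) changed sign in the same way, to -0.16 and 0.11 and to -0.17 and 0.03. For the stalk, the direction is thus set by the scaling.

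Rpsa, a small-subunit protein that is also known as a laminin receptor, behaved likewise in its brightest probe. Its levels were 9.15, 9.05, 9.21 and 9.12 in Id1KO_Zrf1KD, 9.52, 9.74, 9.57 and 9.56 in Id1KO, and 9.37, 9.09, 9.32 and 9.26 in WT. The log2 fold change was 0.34 ± 0.07 (SE) in Id1KO against WT and -0.46 ± 0.07 in Id1KO_Zrf1KD against Id1KO (adjusted p = 0.0013 and 0.00013), and after quantile normalization -0.23 and 0.09. All 4 Rpsa probes passed in both comparisons at the 75th percentile scaling.

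The genes that are mutated in Diamond-Blackfan anaemia, a human failure of red cell formation, had 14 of 15 probes higher in Id1KO against WT (median 0.71) and 14 lower in Id1KO_Zrf1KD against Id1KO (median -0.74). After quantile normalization 9 were higher and 3 lower (34.9% and 33.3% of all probes, median 0.15), and 3 higher and 9 lower (34.3% and 34.1%, median -0.27). At the 75th percentile scaling none was higher and 1 was lower in Id1KO_Zrf1KD against WT (31.4% and 32.4% of all probes). Rps19, the small-subunit protein most often mutated there, had 7.37, 7.31, 7.32 and 7.36 in Id1KO_Zrf1KD, 8.26, 8.22, 8.31 and 8.21 in Id1KO, and 7.25, 7.36, 7.29 and 7.26 in WT. All 4 Id1KO arrays were higher than the other 8. It rose by 0.96 ± 0.04 (SE, adjusted p = 5.1e-09) in Id1KO and fell by 0.91 ± 0.04 (adjusted p = 9.3e-09) after the knockdown. Rps7, another small-subunit protein of the list, gave 0.98 ± 0.05 and -0.94 ± 0.05. Both kept these signs after quantile normalization, at 0.48 and -0.50 for Rps19 and 0.52 and -0.57 for Rps7.

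Rpl5 and Rpl11 bind the ribosomal 5S RNA together and, when free of the ribosome, the p53 regulator Mdm2. Rpl5 had 6.75, 6.80, 6.88 and 6.81 in Id1KO_Zrf1KD, 7.71, 7.81, 7.67 and 7.65 in Id1KO, and 6.89, 6.75, 6.88 and 6.91 in WT. The Id1KO arrays stood apart, with 0.85 ± 0.05 against WT and -0.90 ± 0.05 for Id1KO_Zrf1KD against Id1KO. Rpl11 moved less in its brightest probe, at 0.39 ± 0.05 and -0.33 ± 0.05, and turned to -0.19 and 0.23 after quantile normalization. A second Rpl11 probe was called in the same directions, and the other was not called, with 0.30 (adjusted p = 0.24) and -0.49 (adjusted p = 0.074).

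Around the exit of the tunnel through which the new protein leaves the large subunit stand 8 of the proteins, with 24 probes tested. Of these 21 were higher and 2 lower in Id1KO against WT (median 0.77), and 23 were lower in Id1KO_Zrf1KD against Id1KO (median -0.86). Quantile normalization kept the signs, with 17 higher and 4 lower (median 0.27), and 19 lower and none higher (median -0.42). Rpl31, which in yeast is known to hold the Zrf1 homologue Zuo1 to the ribosome, had 8.19, 8.15, 8.20 and 8.22 in Id1KO_Zrf1KD, 8.78, 8.85, 8.81 and 8.83 in Id1KO, and 8.21, 8.12, 8.18 and 8.09 in WT in its brightest probe. It rose by 0.67 ± 0.04 in Id1KO and fell by 0.63 ± 0.04 after the knockdown, to the level of WT (0.04, adjusted p = 0.40). All 5 Rpl31 probes were called in these directions, but 2 of them stayed above WT in Id1KO_Zrf1KD.

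Some X-linked members were below WT after the knockdown. Rpl10, Rpl36a, Rpl39 and Rps4x had 11 probes. In Id1KO_Zrf1KD against WT 6 of the 11 were lower and 1 higher (median -0.31), beside 32.4% and 31.4% of all probes. Of 168 probes of the 76 autosomal members 14 were lower and 26 higher (median 0.01), which is below these shares. After quantile normalization 8 of the 11 were lower and none higher (median -0.31), beside 33.4% and 29% of all probes. Of the autosomal probes 22 were lower and 21 higher there. The difference between these lists was not tested, and all 6 lower probes belong to Rpl10 and Rpl39. In Id1KO_Zrf1KD against Id1KO all 11 were lower (40.6% of all probes, median -0.52). In Id1KO against WT 9 were higher and 1 lower (42.3% and 28.1% of all probes, median 0.26). After quantile normalization this turned to 3 higher and 7 lower (34.9% and 33.3%, median -0.23).

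Rpl10, which completes the large subunit near its catalytic centre, had 9.01, 8.98, 8.94 and 9.04 in Id1KO_Zrf1KD, 9.48, 9.52, 9.55 and 9.49 in Id1KO, and 9.57, 9.45, 9.52 and 9.53 in WT in its brightest probe. The Id1KO_Zrf1KD arrays lay below both other groups, which did not separate. The log2 fold change was -0.52 ± 0.04 against WT (adjusted p = 7.4e-07) and -0.53 after quantile normalization. Against Id1KO it was -0.52 ± 0.04 (adjusted p = 7.6e-07), but 0.04 after quantile normalization. Its other 2 probes, which were called higher in Id1KO than in WT, were also lower against both at the 75th percentile scaling. Against Id1KO they were not called after quantile normalization (-0.01 and -0.09, adjusted p = 0.85 and 0.21), and against WT they kept the call there (-0.32 and -0.31) but not with array median scaling (-0.19 and -0.20, adjusted p = 0.22 and 0.24).

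Rpl39, a very short protein of the tunnel wall, had 7.37, 7.34, 7.40 and 7.47 in Id1KO_Zrf1KD, 8.30, 8.34, 8.33 and 8.28 in Id1KO, and 8.23, 8.12, 8.16 and 8.16 in WT. The Id1KO_Zrf1KD arrays lay below the other 8. The log2 fold change was -0.77 ± 0.04 against WT (adjusted p = 4.3e-08) and -0.92 ± 0.04 against Id1KO (adjusted p = 1.2e-08). All 3 Rpl39 probes were lower in both, and also after quantile normalization. In Id1KO against WT the probes went different ways, at 0.14 and 0.18 in the bright ones and -0.55 in the dim one nearest the end of the transcript, and all 3 were negative after quantile normalization and with spike-in scaling.

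Rpl36a had 7.32, 7.32, 7.31 and 7.21 in Id1KO_Zrf1KD, 7.71, 7.87, 7.76 and 7.80 in Id1KO, and 7.18, 7.12, 7.18 and 7.09 in WT in its brightest probe. It was a little higher than WT after the knockdown (0.15 ± 0.05, adjusted p = 0.019), and its other 2 probes were not called there. This call did not hold after quantile normalization, with array median or spike-in scaling, or in the deposited table, where no X-linked probe was called higher than WT. Rps4x had 7.67, 7.60, 7.71 and 7.67 in Id1KO_Zrf1KD, 7.92, 8.06 and 8.05 on the 3 Id1KO arrays with a value, and 7.86, 7.63, 7.76 and 7.77 in WT. The fit used these 3 arrays, and Rps4x did not pass against WT (-0.09, adjusted p = 0.21).

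Paralogues were measured beside their parent genes, and the printed probes of Rpl39 and Rpl39l, and of Rps27 and Rps27l, differ along their length. Rpl39l, the autosomal relative of Rpl39 known from testis, had 4.43, 4.47, 4.64 and 4.52 in Id1KO_Zrf1KD, 5.50, 5.70, 5.47 and 5.61 in Id1KO, and 4.92, 4.86, 5.12 and 4.92 in WT. The 3 groups did not overlap. It was higher in Id1KO than in WT (0.61 ± 0.07, adjusted p = 2e-05) and lower in Id1KO_Zrf1KD than in Id1KO (-1.06 ± 0.07, adjusted p = 2.5e-07) and in WT (-0.44 ± 0.07, adjusted p = 0.00029), with the same signs after quantile normalization.

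Rps27 and Rps27l, a relative known as a p53 target, were alike in their differences between groups. The Rps27 probe has a position on another chromosome than its gene, so its signal can be that of a copy. Rps27 had 8.83, 8.72, 8.73 and 8.75 in Id1KO_Zrf1KD, 9.58, 9.68, 9.64 and 9.58 in Id1KO, and 8.66, 8.56, 8.65 and 8.54 in WT. Rps27l had 7.48, 7.49, 7.46 and 7.46 in Id1KO_Zrf1KD, 8.28, 8.37, 8.30 and 8.32 in Id1KO, and 7.35, 7.31, 7.37 and 7.23 in WT. Id1KO was highest and Id1KO_Zrf1KD lay a little above WT in both, by 0.16 (adjusted p = 0.012 for Rps27 and 0.0077 for Rps27l). With spike-in scaling Rps27 lost that call, since none of the 12 probes of the parent genes was called higher than WT. Of the 5 probes of the paralogues 3 were higher than WT at the 75th percentile scaling and 1 with spike-ins (31.4% and 28.2% of all probes). Against WT, Id1KO was higher by 1.02 ± 0.05 for Rps27 and 1.0 ± 0.04 for Rps27l.

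Rpl3, at the catalytic centre, and its muscle relative Rpl3l were also alike in their differences. For Id1KO against WT they gave 0.30 and 0.27, in Id1KO_Zrf1KD against Id1KO -0.48 and -0.52, and in Id1KO_Zrf1KD against WT -0.19 and -0.25, all called, although Rpl3 turned to -0.27 and 0.07 in the first 2 comparisons after quantile normalization, and Rpl3l to -0.04 in the first with array median scaling. Rpl10l, the testis relative of Rpl10, went its own way in its dimmer probe. That probe had 4.45, 4.46, 4.39 and 4.49 in Id1KO_Zrf1KD, 4.11, 4.10, 4.32 and 4.22 in Id1KO, and 4.10, 4.12, 4.07 and 4.10 in WT. It was higher in Id1KO_Zrf1KD than in Id1KO (0.26 ± 0.05, adjusted p = 0.0012) and WT (0.35 ± 0.05, adjusted p = 0.00015), where Rpl10 was lower at the 75th percentile scaling, and the signs of the Rpl10l probe held after quantile normalization (0.22 and 0.20). The other Rpl10l probe was also higher than WT (0.23, adjusted p = 0.033) and not called against Id1KO.

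Some genes gave different answers in probes at different bases, and Rpl22, an RNA-binding protein at the outside of the large subunit, was 1 of them. At base 385 it had 8.31, 8.41, 8.32 and 8.39 in Id1KO_Zrf1KD, 9.11, 9.36, 9.20 and 9.32 in Id1KO, and 8.48, 8.34, 8.41 and 8.35 in WT. At base 1882 it had 3.66, 3.57, 3.53 and 3.6 in Id1KO_Zrf1KD, 3.66, 3.57, 3.57 and 3.54 in Id1KO, and 4.49, 4.57, 4.52 and 4.43 in WT. The early probe was thus highest in Id1KO alone, and the late probe was lower in both knockout groups than in WT, by -0.91 ± 0.05 in Id1KO_Zrf1KD and -0.92 ± 0.05 in Id1KO (adjusted p = 2.5e-08 and 2e-08). These signs held after quantile normalization, at -1.07 and -1.02. The pair is shown because its probes were called in opposite directions, so its difference is a description.

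Rps6, the small-subunit protein that is phosphorylated after growth signals, had 3 probes, of which those at base 589 and base 1274 are shown. At base 589 it had 8.76, 8.77, 8.74 and 8.77 in Id1KO_Zrf1KD, 9.17, 9.41, 9.43 and 9.43 in Id1KO, and 8.74, 8.68, 8.72 and 8.62 in WT. At base 1274 it had 3.02, 3.1, 2.98 and 3.13 in Id1KO_Zrf1KD, 3.41, 3.41, 3.46 and 3.45 in Id1KO, and 1.82, 1.63, 1.74 and 1.60 in WT. The early probe was back at the level of WT after the knockdown (0.07, adjusted p = 0.37). The late probe was not: it rose by 1.73 ± 0.06 in Id1KO, the highest value of the family in this comparison, and stayed 1.36 ± 0.06 above WT in Id1KO_Zrf1KD (adjusted p = 6.7e-10 and 4.7e-09). It kept 1.71 and 1.27 after quantile normalization. The other Rps6 probe was called higher than WT in both groups, and lower in Id1KO_Zrf1KD than in Id1KO.

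**Figure D4:**
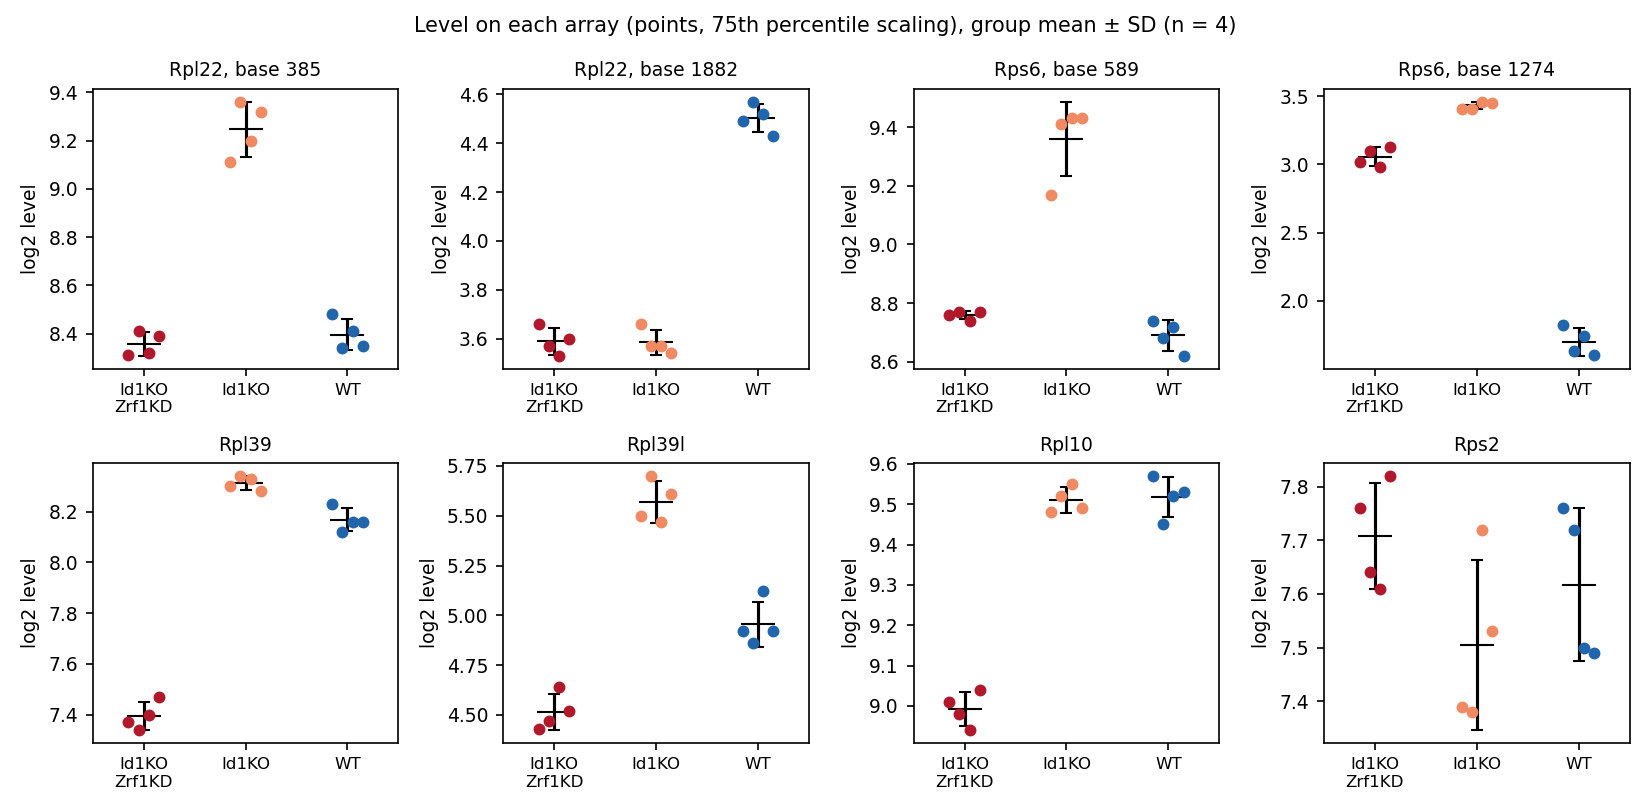
Level on each array (points) with group mean and SD (n = 4) for 8 probes at the 75th percentile scaling, each panel with its own axis. Rpl22 and Rps6 are shown at an early and a late base of the transcript. The early probes are highest in Id1KO, the late Rpl22 probe is highest in WT, the late Rps6 probe is lowest in WT, and Rpl39, Rpl39l and Rpl10 are lowest in Id1KO_Zrf1KD.

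The next highest probes of Id1KO_Zrf1KD against WT lie near the start of the transcript. The dim probe at base 42 of Rps27a, a small-subunit protein made as a fusion with ubiquitin, had -0.56, -0.70, -0.80 and -0.62 in Id1KO_Zrf1KD, -1.41, -1.16, -1.03 and -1.27 in Id1KO, and -2.00, -1.96, -1.96 and -2.03 in WT. The 3 groups did not overlap, and Id1KO_Zrf1KD was highest, by 0.55 ± 0.08 over Id1KO and 1.32 ± 0.08 over WT. The other 2 Rps27a probes were lower in Id1KO_Zrf1KD than in Id1KO, by -0.88 and -1.12. Rpl30 at base 90 (1.10 against WT, adjusted p = 1e-08) also stayed above WT, and its other 2 probes were not called there. Not every early probe did so: Rpl26 at base 63 (0.03), Rps18 at base 26 (0.00), Rpl28 at base 62 (0.19), Rps15 at base 87 (0.17) and Rpsa at base 91 (-0.03) were nearer to 0 against WT.

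The remaining extremes of Id1KO against WT were dim probes of Rps25, Rpl31 and Rpl17. Rps25, a small-subunit protein used in internal initiation, had -1.76, -1.63, -1.59 and -1.79 in Id1KO_Zrf1KD, -0.20, -0.13, -0.36 and -0.24 in Id1KO, and -1.70, -2.08, -1.85 and -1.90 in WT. That is 1.65 ± 0.08 in Id1KO against WT and -1.46 ± 0.08 in Id1KO_Zrf1KD against Id1KO. Its bright probe gave 0.96 and -0.96. The dim Rpl31 probe gave 1.63 ± 0.05 and -1.11 ± 0.05, and that of Rpl17 1.39 ± 0.13 and -1.11 ± 0.13. In these genes the dim and the bright probes moved the same way.

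A few members did not follow the family. Rps2, a small-subunit protein at the mRNA entry, had 7.76, 7.64, 7.61 and 7.82 in Id1KO_Zrf1KD, 7.39, 7.38, 7.72 and 7.53 in Id1KO, and 7.76, 7.72, 7.50 and 7.49 in WT in 1 probe, and neither of its 2 probes was called in any comparison. A dim Rpl21 probe also rose in Id1KO_Zrf1KD against Id1KO (0.24, adjusted p = 0.020).

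Probes of Rps21, Rpl17 and Rps24 spread widely over the arrays of a group. Rps21 had 3.22, 3.47, 4.67 and 3.51 in Id1KO_Zrf1KD, 5.49, 6.08, 4.49 and 5.05 in Id1KO, and 4.2, 3.82, 4.69 and 4.88 in WT. The arrays of 1 of the slides were the highest of each group. That slide held more Id1KO than Id1KO_Zrf1KD arrays, so the values over all arrays mix group with slide. Against Id1KO, Id1KO_Zrf1KD gave -1.56 ± 0.40 for Rps21, -1.61 ± 0.50 for the Rpl17 probe at base 590 and -1.35 ± 0.22 for the Rps24 probe at base 356. Within the 3 slides, which each held all groups, the values were -1.12, -1.58 and -1.11 for Rps21, -1.21, -1.39 and -1.12 for Rpl17, and -1.10, -1.41 and -1.13 for Rps24.

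Other mRNAs known for a TOP tract, among them those of elongation and initiation factors, had 20 genes tested (brightest probe). Counted by the brightest probe of each of 22593 gene names, 42.3% of all were higher and 29.4% lower in Id1KO against WT, 32.2% and 39.7% in Id1KO_Zrf1KD against Id1KO, and 32.3% and 32.1% in Id1KO_Zrf1KD against WT, and these shares also go with the counts of the lists below. Against WT, 13 were higher and 5 lower in Id1KO (median 0.45), and in Id1KO_Zrf1KD against Id1KO 12 were lower and 6 higher (median -0.49), but the medians turned to -0.08 and 0.03 after quantile normalization. Eif3e, a subunit of an initiation factor, gave 1.23 and -0.74, and Naca, which binds nascent proteins, gave 0.76 in Id1KO against WT. Eef1b2, an elongation factor, gave -0.75 in Id1KO_Zrf1KD against Id1KO. Eef2, the translocation factor, was lower in Id1KO than in WT (-0.46), as was Eif3f (-0.35), and Vim, an intermediate filament protein (0.98), and Hnrnpa1, an RNA-binding protein (0.51), were higher in Id1KO_Zrf1KD than in Id1KO. Against WT, Id1KO_Zrf1KD gave 0.72 for Vim and 0.49 for Eif3e, and -0.30 for Eef2 and -0.24 for Eef1a1.

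Genes that build ribosomes were also measured. Of 41 tested, 23 were higher and 3 lower in Id1KO against WT (median 0.18), 27 were higher and 7 lower in Id1KO_Zrf1KD against Id1KO (median 0.28), and 35 were higher and 2 lower in Id1KO_Zrf1KD against WT (median 0.58). These medians were 0.14, 0.26 and 0.46 after quantile normalization, and with spike-in scaling the first turned to -0.07 while the others were 0.58 and 0.63. Imp4, of the small-subunit processome, gave 1.61 in Id1KO and 1.62 in Id1KO_Zrf1KD, each against WT, and Rrs1, needed for the large subunit, gave 1.22 in Id1KO_Zrf1KD against WT and 1.13 against Id1KO. Nop10 was higher (1.18) and Fbl, the rRNA methylase, lower (-0.57) in Id1KO than in WT, as was Eftud1 (-0.37). Tsr1 was higher (0.94), and Nop56 (-0.59) and Gnl3 (-0.56) lower, in Id1KO_Zrf1KD than in Id1KO. Gnl3l (-0.36) and Dkc1 (-0.28) were lower in Id1KO_Zrf1KD than in WT. How this list differs from the ribosomal proteins was not tested.

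Mitochondrial ribosomal proteins, a separate family, had 75 genes tested, with 64 higher and 4 lower in Id1KO against WT (median 0.54), and 45 lower and 12 higher in Id1KO_Zrf1KD against Id1KO (median -0.26, turning to 0.04 with spike-in scaling). In Id1KO_Zrf1KD against WT 52 were higher and 4 lower, with a median of 0.36, beside 0.01 for the cytosolic family. After quantile normalization the medians were 0.44, -0.23 and 0.22 in these comparisons (brightest probe of each gene). All tested probes of the cytosolic family had 0.18, -0.17 and -0.01 there, so the mitochondrial family was then the further from WT in Id1KO. Mrpl1 (1.66) and Mrpl20 (1.5) were highest and Mrpl35 (-0.47) was the lowest called gene in Id1KO against WT, and Mrpl53 (-1.30) and Mrpl41 (-1.0) were lowest in Id1KO_Zrf1KD against Id1KO, where Mrpl37 (0.52) was the highest called. Against WT, Id1KO_Zrf1KD gave 1.16 for Mrpl20 and 1.09 for Mrps7, and -0.47 for Mrpl35 and -0.41 for Mrps36. Mrps18b was not called, at -2.24 ± 2.34 (SE) in Id1KO against WT and 3.04 ± 2.34 in Id1KO_Zrf1KD against Id1KO. Both values rest on 1 array: its levels were 6.07, 6.09, 6.18 and 6.07 in Id1KO_Zrf1KD, 6.17, 6.19, -6.32 and 6.21 in Id1KO, and 5.21, 5.24, 5.5 and 5.28 in WT. Without Id1KO replicate 3, a choice made after seeing the data, the differences of the means were 0.88 and -0.09.

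Markers of other cell types moved with the groups. All 12 fibroblast genes were higher in Id1KO_Zrf1KD than in Id1KO, and their summed level was 6.78 to 6.87 in Id1KO_Zrf1KD, 4.37 to 4.49 in Id1KO and 5.17 to 5.29 in WT. In Id1KO against WT 8 of the 12 were lower and 1 higher, and Lum was not well above background on any Id1KO or WT array. All 11 parietal endoderm genes were higher in Id1KO_Zrf1KD than in Id1KO and WT, with a summed level of 8.63 to 8.68 in Id1KO_Zrf1KD, 6.92 to 7.0 in Id1KO and 7.79 to 7.87 in WT. Sparc, the brightest of these 11, had mean levels of 8.02 in Id1KO_Zrf1KD, 6.48 in Id1KO and 7.42 in WT, so their sum rests largely on it. The 8 embryonic stem cell genes had a summed level of 9.83 to 9.86 in Id1KO_Zrf1KD, 10.11 to 10.27 in Id1KO and 9.99 to 10.19 in WT. Of these 8 genes, 3 were higher and 4 lower in Id1KO against WT (median -0.16), 4 and 3 in Id1KO_Zrf1KD against Id1KO (median 0.05), and 1 and 5 in Id1KO_Zrf1KD against WT (median -0.23), so the summed level does not speak for the single genes. The part of these cell types in the ribosomal protein values was not tested.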

How the data were processed

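RNA levels were read on 12 one-colour arrays, 4 for each of 3 groups taken from the labels, on 3 slides that each held all groups. The slides did not all hold the groups in equal numbers. The deposited intensity values are background-subtracted and detrended within each array by Agilent Feature Extraction, per the file headers, with probe positions on mm9. The deposited log2 table holds the authors' values normalized between arrays, by a method the sources used here do not name.

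From the processed intensities, unflagged spots of a probe were averaged as log2 values after subtraction of the array's 75th percentile. Probes well above background on all 4 arrays of a group were kept. Group means were fitted to the 12 arrays with limma 3.58.1 in R 4.3.3, a moderated test that is two-sided, with Benjamini-Hochberg adjustment over all probes and a threshold of 0.05. The code was also run on simulated data, where single probes with shifts the size of the family's were not all recovered. The number of arrays limits the precision.

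Named genes are those of roles stated in the text, and in each comparison the 4 highest and 4 lowest probes and genes with opposite calls, and for other lists the 2 highest and 2 lowest genes; a few genes named by this rule are not reported here. The members, lists and bands of brightness were chosen with earlier results of these data known. Alternatives covered background correction (normexp, offset 50), other scalings, the filter, the brightest probe, slides, replicate numbers and each array left out. Scaling to spike-ins and to the median of the family was added after seeing the data. The replicate numbers did not pair the arrays: between groups, arrays of 1 number correlated at a median of -0.18 in their deviations from the group means, and 3 of 12 such pairs were over 0.1. Arrays of 1 slide had a median of 0.22, with 13 of 16 pairs over 0.1.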

Additional observations from a re-analysis of the deposited data

Results flagged for a closer look

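Among 86 sets of 4 arrays (27 probes in each group, and summary values), 5 held an array set apart from the other 3 by Dixon's criterion, which chance gives in about 5% of sets. For Rpl36a, Id1KO_Zrf1KD replicate 4 had a level of 7.21, with the others at 7.31 to 7.32. The family's share of the signal in Id1KO_Zrf1KD was 12.479% in replicate 1, with the others at 12.355 to 12.366%. For the Rps6 probe at base 589, Id1KO replicate 1 had 9.17, with the others at 9.41 to 9.43. For Rpl5, WT replicate 2 had 6.75, with the others at 6.88 to 6.91, and for an Rpl39 probe it had 7.97, with the others at 8.13 to 8.14.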

How the results depend on the processing

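With each array left out in turn, every count and median of the family stayed within 1.5 times its value or the spread of the arrays. In Id1KO against WT 161 to 164 probes were higher and 2 to 3 lower, with a median of 0.63 to 0.70, or 0.47 to 0.52 above that of all probes, and 40 to 46 lay above and 57 to 63 below the family median. In Id1KO_Zrf1KD against Id1KO 2 to 4 were higher and 163 to 166 lower, with a median of -0.64 to -0.60 (-0.53 to -0.48 from all probes), and 59 to 70 lay above and 36 to 41 below the family median. In Id1KO_Zrf1KD against WT 23 to 30 were higher and 16 to 21 lower, with a median of -0.01 to 0.04 (0.03 to 0.06 from all probes), and 25 to 31 lay above and 15 to 21 below the family median. Of 1044 values of named probes, 21 lost their call and 3 gained one. Normexp moved the medians to 0.61 and -0.57 in Id1KO against WT and Id1KO_Zrf1KD against Id1KO (0.44 and -0.41 from all probes), with 6 probes higher in the second and 18 above and 22 below the family median in Id1KO_Zrf1KD against WT. Quantile normalization gave 95 higher and 33 lower (median 0.18, 0.16 from all probes) in Id1KO against WT, and 22 and 100 (-0.17 and -0.17) in Id1KO_Zrf1KD against Id1KO. The deposited table gave 95 and 30 (0.20 and 0.19), and 19 and 99 (-0.20 and -0.20). Its values put 33 probes above and 73 below the family median in Id1KO_Zrf1KD against Id1KO, and 13 above and 32 below in Id1KO_Zrf1KD against WT. Array median scaling gave 95 higher and 7 lower (median 0.35) in Id1KO against WT, 12 higher and 69 lower (-0.20) in Id1KO_Zrf1KD against Id1KO, and 17 higher and 5 lower (0.13) in Id1KO_Zrf1KD against WT. Spike-in scaling, chosen after seeing the data, gave 11 higher and 7 lower (0.06) in the last, beside 116 and 5 (0.41) and 9 and 110 (-0.32) in the others. Without a filter the family lay 0.32 and -0.21 from all probes, since more dim probes entered. The brightest probe of each gene gave 73 higher and 1 lower, 1 and 76, and 6 and 8 in the 3 comparisons, since fewer probes were tested. A slide block gave 5 probes higher in Id1KO_Zrf1KD against Id1KO. Within slide 1 the medians were 0.59 in Id1KO against WT (0.46 from all probes) and -0.04 in Id1KO_Zrf1KD against WT, and within slide 2 they were 0.71 and 0.06. With a replicate block, although the numbers did not pair the arrays (1 of 12 arrays correlated best with its own number), 162 probes were higher and 2 lower, 3 and 164, and 23 and 19. It ended the call of 2 values of named probes and moved no count by over 1.5 times.

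Single named probes changed sign as follows. For Id1KO against WT, quantile normalization gave -0.25 for the brighter Rpl10l probe, -0.23 for Rps4x, -0.19 for Rpl11, -0.23 for Rpsa, -0.17 for Rplp2, -0.15 for Rplp0, -0.16 for Rplp1, -0.27 for Rpl3, and -0.37 and -0.32 for Rpl39. The deposited table gave -0.23, -0.17, -0.16, -0.25, -0.17, -0.10, -0.08, -0.17, and -0.36 and -0.32 for the same probes in that order. Array median and spike-in scaling gave -0.26 and -0.20 for that Rpl10l probe (adjusted p = 0.18 and 0.19), which was not called at the 75th percentile scaling either (0.05). Array median scaling gave -0.01 for Rps4x, -0.04 for Rpl3l, -0.01 for Rpl3, and -0.17 and -0.13 for Rpl39, and spike-in scaling -0.11 and -0.07 for Rpl39. For Id1KO_Zrf1KD against Id1KO, quantile normalization gave 0.10 for Rps4x, 0.23 for Rpl11, 0.09 for Rpsa, 0.03 for Rplp2, 0.19 for Rplp0, 0.11 for Rplp1, 0.07 for Rpl3 and 0.04 for Rpl10. The deposited table gave 0.06 for Rps4x, 0.21 for Rpl11, 0.08 for Rpsa, 0.07 for Rplp2, 0.16 for Rplp0, 0.03 for Rplp1 and 0.00 for Rpl10. Array median scaling gave 0.03 for Rps4x, 0.09 for Rpl11 and 0.07 for Rplp0. The cause of these changes was not tested. Probes near the background of an array are limited by it.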

Other observations

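Base composition of the probes, at a median of 45% G and C (26.7 to 55%), was weakly related to the log2 fold changes across the 179 probes, with r = 0.02 in Id1KO against WT, 0.23 in Id1KO_Zrf1KD against Id1KO and 0.29 in Id1KO_Zrf1KD against WT. These are descriptions across probes of the same arrays, several of which share a gene.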
